A study of Homo sapiens with 27 samples.

Results

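The 35 genes considered here repair DNA or act in the checkpoints that halt the cell cycle when DNA is damaged. They were chosen by name, and every probe set of the array whose annotation listed one of these symbols alone was read. This gave 73 of 54675 probe sets, for 31 of the 35 genes, out of 19775 genes that could be read in the same way. BRCA2, RBBP8, FANCA and FANCD2 were not matched to a probe set in the annotation used and were not analysed here. A gene with several probe sets (at most 6) was represented by the probe set of the highest mean over all arrays, and 13 of the genes had only 1.

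Expression was measured on 27 Affymetrix U133 Plus 2.0 arrays, with 3 biological replicates for each combination of cell line and culture condition. The cells were PC-3 from a prostate cancer, SK-OV-3 from an ovarian cancer and WM793B from a melanoma, each an established line and each the only line of its tumor type. Each line was grown in a medium of its own, so that cell line and medium cannot be told apart. Chronic hypoxia meant 1% oxygen for 72 h, and control cells stayed at 21% oxygen for 72 h. Cycling hypoxia meant periods of 4 h or 12 h at 1% oxygen alternating with 21% oxygen over 72 h. By the study's methods the last 4 h of cycling were at 21% oxygen. Effects of cycling and of that reoxygenation cannot be told apart. The deposited values are on the log2 scale, so a difference of 1 is a 2-fold change, and a value of 5 was taken as the level under which a signal was called dim.

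Markers of the cells of origin were checked first. All 5 epithelial markers were at 5 or above in every PC-3 and SK-OV-3 group and under 5 in every WM793B group. WM793B carried SOX10 (10.40 to 10.48 as group means) and S100B (10.14 to 11.32), while the pigment cell genes PMEL, MLANA and TYR lay between 2.28 and 2.32 there, at the floor of the scale. MITF, the master regulator of pigment cells, did not set WM793B apart, at 8.31 to 8.54 there, 7.57 to 7.66 in PC-3 and 9.26 to 9.42 in SK-OV-3 cells. PAX8, a marker of the Müllerian lineage, was at 9.22 to 9.48 in SK-OV-3 cells and under 5 in the other lines, whereas the ovarian markers WT1 (3.11 to 4.00) and MUC16 (2.28) were not above that level in SK-OV-3 cells. Of 6 markers of blood and endothelial cells, only PECAM1 reached 5 in any group, at 5.57 to 6.57 in PC-3 cells. Replicate arrays of a group correlated at 0.994 to 0.998. Of 7 measured genes of the hypoxia response, chronic hypoxia raised 6 in PC-3, 6 in WM793B and 7 in SK-OV-3 cells (adjusted p under 0.05).

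A broken DNA double strand is mended either by homologous recombination, which copies the sister chromatid and is used in S and G2 phase, or by end joining, which seals the ends directly in any phase. BRCA1 and its partners open the way for recombination, the Fanconi anemia proteins unhook crosslinks between the strands, and the kinases ATM and ATR signal the damage to CHEK2 and CHEK1. Many of these genes are transcribed most strongly as cells enter S phase, and lower expression of recombination genes in hypoxic tumor cells is a known feature of the hypoxic response.

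Under chronic hypoxia most of these genes were lower than in control cells in PC-3 and WM793B, while in SK-OV-3 cells as many were called higher as lower. In PC-3 cells 23 of the 31 genes were called lower under chronic hypoxia than in control cells (adjusted p under 0.05 in limma, here and below) and 0 higher, where 22.6% of all genes were called lower and 13.3% higher. Among the 11125 genes that reached 5 in at least 1 group, a comparison less weighted by silent genes, 38.4% were called lower and 22.8% higher. The median log2 fold change over the 31 genes was -0.97, with a range from -2.02 to -0.08, and 15 of the calls were at least 2-fold. Of all 19775 genes, 1430 were called lower by at least 2-fold and 754 higher, and of those that reached 5, 1348 and 724. In WM793B cells 22 genes were called lower and 0 higher, beside 10.9% of all genes lower (18.6% of those that reached 5) and 8.5% higher, with a median of -0.91 and a range from -2.77 to 0.43. Of these calls 11 were at least 2-fold, given without the number of all genes at that minimum. The count of 22 went up to 24 without WM793B chronic replicate 3, and down to 13 without chronic replicate 1 or control replicate 2 and to 14 without chronic replicate 2 or control replicate 1. In SK-OV-3 cells 4 genes were called lower and 4 higher, beside 13.6% of all genes lower and 11.5% higher (23.4% and 19.6% of those that reached 5), and the median was 0.00. The share called in SK-OV-3 cells, 12.9% in each direction, was close to that of all genes, and among the 28 of the 31 genes that reached 5 it was 14.3% in each direction. The count of 8 became 14 with the variation filter and 15 with a filter at 5, where fewer probe sets were tested. These filtered counts are given without their directions or the share of all genes under the same filter. The median fold change over all genes was 0 in each of these comparisons. In bulk RNA, fewer cells that express a gene and less RNA of it per cell cannot be told apart.

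**Figure D1:**
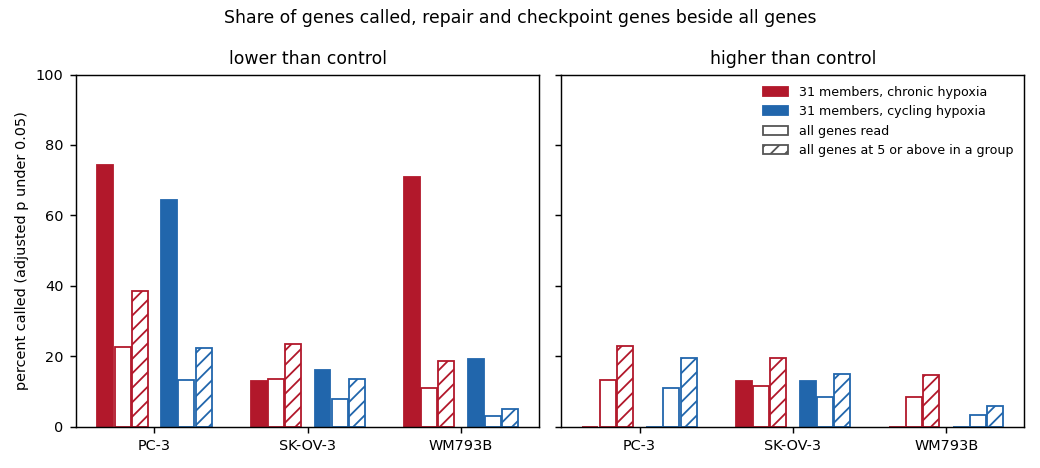
Percent of genes called lower (left) and higher (right) than control in each cell line under chronic hypoxia (red) and cycling hypoxia (blue), for the 31 repair and checkpoint genes (filled bars), all genes read (open bars) and genes at a log2 value of 5 or above in at least 1 group (hatched bars). In PC-3 and WM793B cells the filled red bars for lower genes stand at 74.2% and 71%, and in SK-OV-3 cells at 12.9%.

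Under chronic hypoxia, the lists of called genes in PC-3 and WM793B cells, which share no arrays, had 18 genes in common, 78.3% of the PC-3 list and 81.8% of the WM793B list. Over all genes the shared calls were 33.7% of the PC-3 list and 69.7% of the WM793B list. Lists of 23 and 22 out of 31 genes must share at least 14. The 18 were BRCA1, BRIP1, PALB2, RAD51C, RAD54L, XRCC3, BLM, EXO1, MRE11, FANCI, FANCL, PMS1, ATR, TOPBP1, UNG, XRCC5, XRCC6 and PARP1. Of these, RAD51C, ATR, XRCC5 and XRCC6 were called lower in all 3 lines. Read in the same way, FANCG, CHEK1 and PRKDC were called lower in PC-3 cells alone, and FANCC, MSH6, CHEK2 and CLSPN in WM793B cells alone, although being past the threshold in one line only does not show that the lines differed. XRCC2, NBN, RAD50 and ATM were called in no line under chronic hypoxia by their brightest probe set. These groupings depend on the probe set for some genes. A second probe set of NBN was called lower in PC-3 (-1.13) and WM793B cells (-0.83) and another in PC-3 cells (-0.31), and a second probe set of ATM in PC-3 cells (-0.27). A second probe set of PRKDC was called lower in WM793B and SK-OV-3 cells, and another of CHEK1 in WM793B cells. The other probe sets of XRCC6 and PMS1 were called in no line under chronic hypoxia, and that of XRCC6 did not share its direction. XRCC3, FANCC and CLSPN were dim, under 5 in every group, and their fold changes rest on these dim signals. In WM793B cells under chronic hypoxia the other probe sets of FANCC and CLSPN did not share their direction and were not called.

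**Figure D2:**
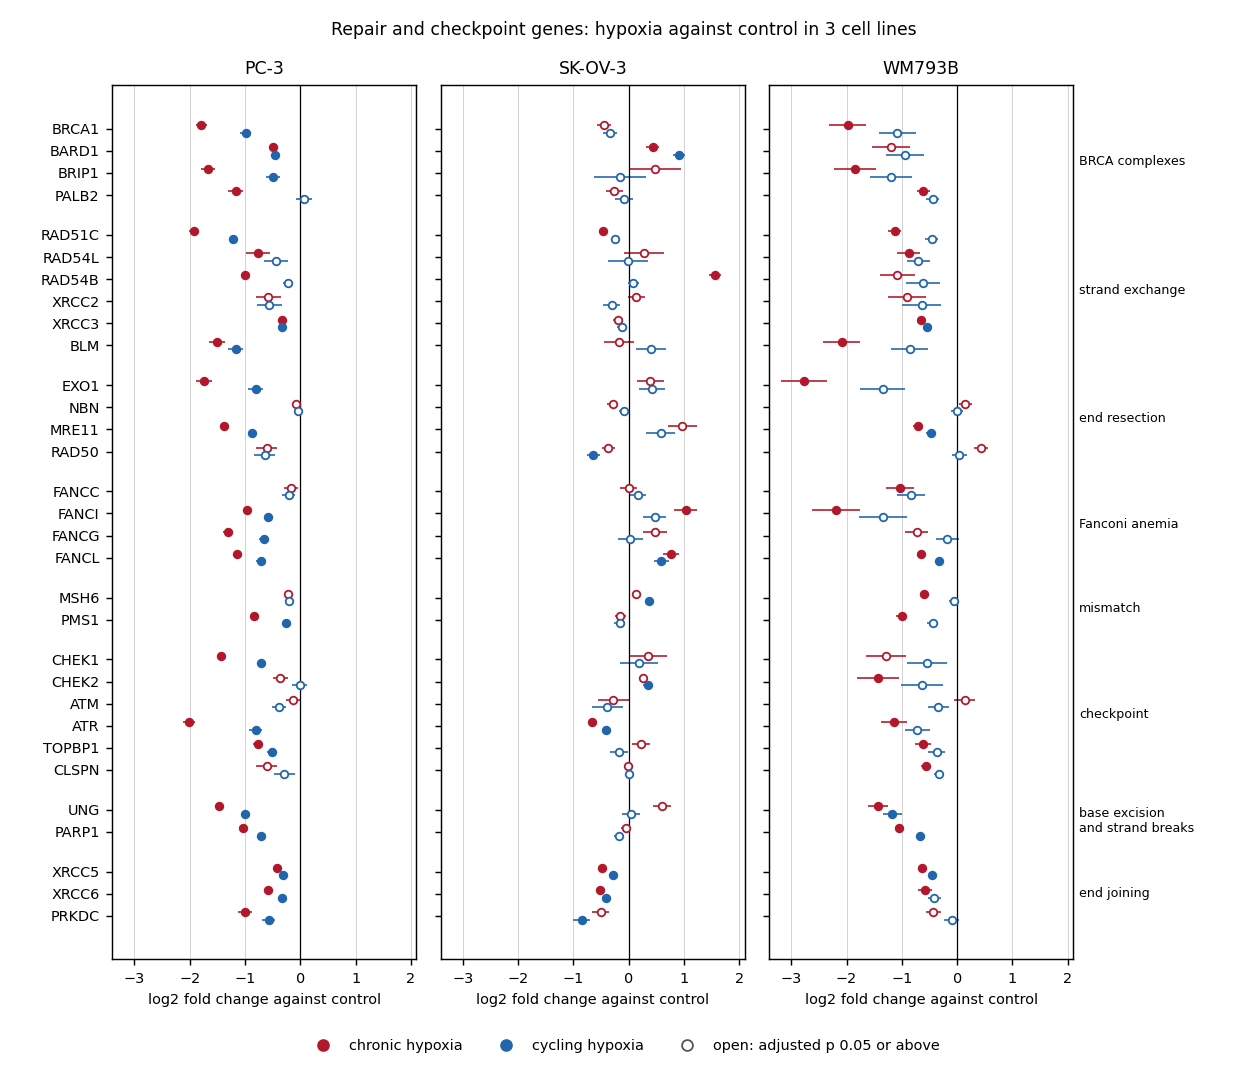
Log2 fold change against control with its standard error (x axis) for each of the 31 genes (rows, grouped by role) in PC-3, SK-OV-3 and WM793B cells, under chronic (red) and cycling hypoxia (blue), 3 arrays per group; open symbols have an adjusted p of 0.05 or above. The red symbols lie left of 0 for all 31 genes in PC-3 cells, and for 28 of them in WM793B cells.

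The promoters of these genes, whether or not they were called, were searched for letters bound by factors of the cell cycle and of hypoxia. This describes the sequences, and a link between the letters and the changes was not tested. Windows of 250 bases before to 50 bases after the start site were taken from RefSeq on GRCh38.p14, and 26 of the 31 genes had one. The E2F family, which drives S phase genes, was represented by TTTCCCGC, TTTCGCGC, TTTGCCGC and TTTGGCGC on either strand. At least 1 of these stood in 8 of the 26 genes (30.8%), and in 3.99% of 27305 genes with such a window (3.31% of 35116 windows). A gene was counted once, however many of these letters it held. The 8 were EXO1, TOPBP1, UNG and XRCC6, which were called lower under chronic hypoxia in both PC-3 and WM793B cells, FANCC, MSH6 and CLSPN, called in WM793B cells alone, and XRCC2, called in no line. CCAAT, the box of the factor NF-Y, was held by 57.7% of the 26 genes and 39.7% of all genes. TTTGAA, the cell cycle homology region, stood in 15.4% and 18.2%. ACGTG, the core letters of the site of hypoxia-inducible factors, stood in 30.8% and 24.9%. Both strands were searched for each, and a match describes the letters and not a bound site. The windows of the 4 genes lower in both lines that held E2F letters are printed with these letters in capitals, and that of ATR, which fell most in PC-3 cells and held none, is printed beside them. EXO1 and UNG each had a further window without E2F letters, which is not printed. EXO1 lies at chr1:241847954-241848253 (plus strand), TOPBP1 at chr3:133661892-133662191 (minus strand), UNG at chr12:109097922-109098221 (plus strand), XRCC6 at chr22:41621045-41621344 (plus strand) and ATR at chr3:142578684-142578983 (minus strand), each read in the direction of the gene.
EXO1: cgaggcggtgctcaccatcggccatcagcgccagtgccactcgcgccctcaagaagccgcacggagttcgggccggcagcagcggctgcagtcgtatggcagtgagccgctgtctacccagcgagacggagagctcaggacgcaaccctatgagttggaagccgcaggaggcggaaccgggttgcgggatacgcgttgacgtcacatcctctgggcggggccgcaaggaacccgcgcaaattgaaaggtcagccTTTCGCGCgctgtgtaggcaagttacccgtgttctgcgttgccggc
TOPBP1: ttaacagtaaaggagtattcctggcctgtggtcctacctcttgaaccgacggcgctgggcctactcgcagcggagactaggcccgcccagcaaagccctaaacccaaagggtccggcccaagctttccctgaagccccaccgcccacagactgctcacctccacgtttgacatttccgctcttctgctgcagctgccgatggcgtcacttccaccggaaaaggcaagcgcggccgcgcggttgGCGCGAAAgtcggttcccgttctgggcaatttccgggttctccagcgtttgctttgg
UNG: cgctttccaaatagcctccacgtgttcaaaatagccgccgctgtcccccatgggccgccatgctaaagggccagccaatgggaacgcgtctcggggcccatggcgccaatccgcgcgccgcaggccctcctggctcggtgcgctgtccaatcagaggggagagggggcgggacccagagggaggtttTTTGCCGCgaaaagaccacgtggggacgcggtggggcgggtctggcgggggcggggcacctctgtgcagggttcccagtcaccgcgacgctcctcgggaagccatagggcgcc
XRCC6: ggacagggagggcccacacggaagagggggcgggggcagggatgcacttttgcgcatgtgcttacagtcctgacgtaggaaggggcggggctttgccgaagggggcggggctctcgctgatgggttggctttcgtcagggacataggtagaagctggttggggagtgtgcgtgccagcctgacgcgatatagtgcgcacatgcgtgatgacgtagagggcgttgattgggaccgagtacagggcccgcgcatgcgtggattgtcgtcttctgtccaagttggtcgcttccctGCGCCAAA
ATR: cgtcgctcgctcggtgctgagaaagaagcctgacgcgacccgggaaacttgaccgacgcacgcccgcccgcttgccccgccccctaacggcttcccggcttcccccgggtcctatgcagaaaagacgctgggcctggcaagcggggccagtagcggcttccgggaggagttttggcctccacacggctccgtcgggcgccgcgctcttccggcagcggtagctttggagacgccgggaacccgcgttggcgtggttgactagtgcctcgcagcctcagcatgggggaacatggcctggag

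All 4 genes of the BRCA1 complexes that were measured were called lower in PC-3 cells under chronic hypoxia (median -1.42), and 3 of 4 in WM793B cells (median -1.52). BRCA1, which directs broken ends into recombination, had log2 values of 4.78, 4.97 and 4.90 on the 3 PC-3 arrays of chronic hypoxia, 5.48, 5.76 and 5.80 under cycling hypoxia and 6.55, 6.76 and 6.70 in control cells. The 3 groups did not overlap, with cycling hypoxia between the others. The log2 fold change was -1.79 for chronic hypoxia (adjusted p = 3.24e-05) and -0.99 for cycling hypoxia (adjusted p = 0.001), each with a standard error of 0.10. In WM793B cells BRCA1 was at 5.40, 4.87 and 6.30 under chronic hypoxia, at 6.45, 6.33 and 6.48 under cycling hypoxia and at 7.46, 7.51 and 7.54 in control cells. All hypoxic arrays lay below the control arrays, and the third array of chronic hypoxia lay well above the other two of its group. Here the fold change of chronic hypoxia was -1.98 (standard error 0.33, adjusted p = 0.00942), and that of cycling hypoxia, -1.08, was not called (adjusted p = 0.15), although a second, dimmer BRCA1 probe set was (-1.37, adjusted p = 0.0275). The same gene was at 6.45, 6.45 and 6.26 under chronic hypoxia and at 6.68, 6.73 and 7.11 in control cells of SK-OV-3, a change of -0.45 that was not called (adjusted p = 0.0682).

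PALB2, the protein that links BRCA1 to BRCA2, had the largest difference between cycling and chronic hypoxia of the 31 genes in PC-3 cells. It had values of 5.18, 5.16 and 5.62 under chronic hypoxia, 6.46, 6.62 and 6.62 under cycling hypoxia and 6.48, 6.38 and 6.62 in control cells. Chronic hypoxia stood below both other groups, and cycling hypoxia overlapped control. Cycling minus chronic hypoxia was 1.25 on the log2 scale (standard error 0.14, adjusted p = 0.00197), chronic hypoxia against control was -1.17 (adjusted p = 0.000711), and cycling hypoxia against control was 0.07 (standard error 0.14). In WM793B cells PALB2 was at 6.97, 7.06 and 7.10 under chronic hypoxia, against 7.59, 7.81 and 7.56 in control cells, without overlap (log2 fold change -0.61, adjusted p = 0.0192). That call was lost without WM793B chronic replicate 1 or 2 or control replicate 1 or 2 (adjusted p of 0.0697, 0.0608, 0.0538 and 0.0641). BRIP1, the helicase bound to BRCA1, averaged 5.59 ± 0.23 under chronic hypoxia and 7.26 ± 0.14 in control PC-3 cells (SD, n = 3), a change of -1.67 (adjusted p = 9.74e-05), and it changed by -1.84 in WM793B cells (adjusted p = 0.0209).

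BARD1, the partner that gives BRCA1 its ubiquitin ligase activity, was lower than control in one line and higher in another. In PC-3 cells it had values of 7.07, 7.24 and 7.02 under chronic hypoxia, 7.11, 7.25 and 7.10 under cycling hypoxia and 7.50, 7.66 and 7.65 in control cells. In SK-OV-3 cells the values were 6.83, 6.75 and 6.82 under chronic hypoxia, 7.25, 7.38 and 7.21 under cycling hypoxia and 6.13, 6.56 and 6.42 in control cells. Thus the hypoxic arrays lay below the control arrays in PC-3 cells and above them in SK-OV-3 cells, where cycling hypoxia stood highest. The fold change of chronic hypoxia was -0.49 in PC-3 cells (adjusted p = 0.00307) and 0.43 in SK-OV-3 cells (adjusted p = 0.0432), and that of cycling hypoxia in SK-OV-3 cells was 0.91 (adjusted p = 0.00333). Leaving out any 1 SK-OV-3 array except control replicate 1 or 2 ended the call of chronic hypoxia in that line (adjusted p from 0.0631 to 0.118). In WM793B cells BARD1 was at 6.90, 6.80 and 7.61 under chronic hypoxia, 7.11, 6.95 and 8.01 under cycling hypoxia and 8.42, 8.47 and 8.0 in control cells, and the change of -1.20 under chronic hypoxia was not called (adjusted p = 0.0702). A second BARD1 probe set was called lower there (-1.03, adjusted p = 0.0304).

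Genes of strand exchange, in which the broken strand invades its intact copy, fell in 5 of 6 cases in PC-3 cells and in 4 of 6 in WM793B cells under chronic hypoxia. RAD51C, which helps to load the recombinase on single strands, was called lower under chronic hypoxia in all lines. In PC-3 cells it was at 6.90, 6.83 and 6.63 under chronic hypoxia, 7.47, 7.55 and 7.51 under cycling hypoxia and 8.78, 8.60 and 8.77 in control cells. In SK-OV-3 cells these values were 8.12, 8.12 and 8.06 under chronic hypoxia, 8.34, 8.42 and 8.21 under cycling hypoxia and 8.67, 8.47 and 8.55 in control cells. In both lines no array of one condition overlapped another condition. WM793B cells had 7.06, 6.87 and 7.30 under chronic hypoxia, 7.78, 7.61 and 7.84 under cycling hypoxia and 8.15, 8.14 and 8.33 in control cells, again with 3 separate groups. The change under chronic hypoxia was -1.93 in PC-3 (adjusted p = 8.86e-06), -0.46 in SK-OV-3 (adjusted p = 0.00389) and -1.13 in WM793B cells (adjusted p = 0.00195). A second probe set of RAD51C was called lower in each line as well, with changes of -1.66 in PC-3, -1.27 in WM793B and -0.62 in SK-OV-3 cells.

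RAD54B, a motor protein that remodels DNA during strand exchange, rose in SK-OV-3 cells under chronic hypoxia more than any other of the 31 genes. Its SK-OV-3 values were 7.74, 8.09 and 7.98 under chronic hypoxia, 6.32, 6.59 and 6.46 under cycling hypoxia and 6.33, 6.40 and 6.40 in control cells. The arrays of chronic hypoxia stood apart, and those of cycling hypoxia overlapped control. The change was 1.56 for chronic hypoxia (adjusted p = 0.000145, standard error 0.10), a fold change of 2.95, and 0.08 for cycling hypoxia (standard error 0.10). In PC-3 cells RAD54B was at 7.27, 7.50 and 7.34 under chronic hypoxia, 8.22, 8.16 and 8.04 under cycling hypoxia and 8.37, 8.27 and 8.48 in control cells, a change of -1.0 under chronic hypoxia (adjusted p = 0.000142). Chronic hypoxia again stood apart there, but below control. In WM793B cells the values were 5.98, 5.44 and 6.73 under chronic hypoxia and 7.10, 7.15 and 7.15 in control cells, and the change of -1.08 was not called (adjusted p = 0.0654).

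BLM, the helicase that dissolves recombination intermediates, was at 3.06, 3.47 and 3.31 under chronic hypoxia, 3.47, 3.78 and 3.61 under cycling hypoxia and 4.81, 4.64 and 4.93 in control PC-3 cells. All PC-3 arrays were dim for BLM, and the hypoxic arrays lay below the control arrays (chronic hypoxia -1.51, adjusted p = 0.000252). In WM793B cells BLM was at 3.79, 3.36 and 4.44 under chronic hypoxia, 4.93, 4.73 and 5.62 under cycling hypoxia and 6.10, 5.96 and 5.80 in control cells. The 3 conditions did not overlap in WM793B cells, and chronic hypoxia changed BLM by -2.09 (standard error 0.33, adjusted p = 0.00796). RAD54L, a second motor of strand exchange, changed by -0.77 in PC-3 cells (adjusted p = 0.0461) and by -0.88 in WM793B cells (adjusted p = 0.0301).

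Of the genes that trim the broken ends, EXO1 and MRE11 fell in PC-3 and WM793B cells, RAD50 was not called under chronic hypoxia in any line, and the probe sets of NBN differed. EXO1, the nuclease of long-range resection, showed the largest change of the 31 genes in WM793B cells. It was at 4.44, 4.83 and 5.67 under chronic hypoxia, 6.04, 5.97 and 7.16 under cycling hypoxia and 7.87, 7.64 and 7.73 in control cells, a log2 fold change of -2.77 for chronic hypoxia (adjusted p = 0.00646, standard error 0.41). The conditions did not overlap, and replicate 3 was the highest array under both chronic and cycling hypoxia. In PC-3 cells EXO1 had values of 5.62, 5.51 and 5.28 under chronic hypoxia, 6.38, 6.39 and 6.44 under cycling hypoxia and 7.51, 7.05 and 7.08 in control cells, also without overlap (chronic hypoxia -1.74, adjusted p = 0.000131). SK-OV-3 cells had less of it, 4.62, 4.84 and 5.01 under chronic hypoxia and 4.18, 4.16 and 4.97 in control cells, and the change of 0.39 was not called.

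MRE11, the nuclease that starts resection, averaged 6.43 ± 0.05 under chronic hypoxia and 7.81 ± 0.08 in control PC-3 cells (SD, n = 3), a change of -1.38 (adjusted p = 8.32e-06). It changed by -0.71 in WM793B cells (adjusted p = 0.00361). In SK-OV-3 cells it averaged 6.29 ± 0.22 under chronic hypoxia and 5.31 ± 0.50 in control cells, a change of 0.97 (standard error 0.26) that missed the threshold and was not called. Of the 2 other MRE11 probe sets, 1 shared the direction in WM793B and 1 in SK-OV-3 cells, and none was called there. Its partner RAD50, which tethers the ends, was called lower in SK-OV-3 cells on the arrays of cycling hypoxia (-0.64, adjusted p = 0.0206). NBN, the third subunit, had 5 probe sets. On the brightest it changed by -0.08 in PC-3, 0.15 in WM793B and -0.29 in SK-OV-3 cells under chronic hypoxia, with standard errors of 0.06, 0.11 and 0.10. On the second brightest it changed by -1.13 in PC-3 (adjusted p = 2.12e-05) and -0.83 in WM793B cells (adjusted p = 0.0051).

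Of the Fanconi anemia genes 3 of 4 were called lower in PC-3 cells and 3 of 4 in WM793B cells, while 2 of 4 were called higher in SK-OV-3 cells under chronic hypoxia. The WM793B count includes FANCC, which was dim and whose other probe sets did not share its direction. FANCI, which forms the clamp that marks crosslinked DNA, had PC-3 values of 7.39, 7.38 and 7.44 under chronic hypoxia, 7.73, 7.70 and 7.95 under cycling hypoxia and 8.32, 8.39 and 8.41 in control cells. In SK-OV-3 cells the order was turned round, with 7.35, 7.65 and 7.12 under chronic hypoxia, 6.83, 7.10 and 6.51 under cycling hypoxia and 6.33, 6.08 and 6.61 in control cells. WM793B cells had 6.30, 6.39 and 8.02 under chronic hypoxia, 7.76, 7.63 and 7.87 under cycling hypoxia and 9.18, 9.21 and 8.88 in control cells. Chronic hypoxia did not overlap control in any line, and WM793B replicate 3 of chronic hypoxia stood above the cycling arrays. The changes under chronic hypoxia were -0.97 in PC-3 (adjusted p = 6.21e-05), 1.03 in SK-OV-3 (adjusted p = 0.0186) and -2.19 in WM793B cells (adjusted p = 0.02). The SK-OV-3 call was lost without chronic replicate 1 or 2 or control replicate 1 or 2 (adjusted p from 0.0536 to 0.0627), and the WM793B call without the arrays of the same numbers (adjusted p from 0.0622 to 0.072). Both other probe sets of FANCI were called lower in PC-3 and WM793B cells, and in SK-OV-3 cells they changed by 0.71 and -0.03 and were not called.

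FANCL, the ubiquitin ligase of the same pathway, repeated this opposition with less scatter. Its PC-3 values were 8.21, 7.90 and 8.10 under chronic hypoxia, 8.50, 8.39 and 8.59 under cycling hypoxia and 9.23, 9.21 and 9.20 in control cells. Its SK-OV-3 values were 9.73, 10.04 and 9.62 under chronic hypoxia, 9.51, 9.87 and 9.51 under cycling hypoxia and 9.09, 9.05 and 8.97 in control cells. In WM793B cells it was at 9.44, 9.31 and 9.33 under chronic hypoxia, 9.70, 9.75 and 9.62 under cycling hypoxia and 9.98, 9.98 and 10.11 in control cells. Every hypoxic array was below every control array in PC-3 and WM793B cells and above every control array in SK-OV-3 cells. Chronic hypoxia changed FANCL by -1.14 (adjusted p = 7.87e-05), 0.76 (adjusted p = 0.0105) and -0.66 (adjusted p = 0.00074) in PC-3, SK-OV-3 and WM793B cells. FANCG, a scaffold of the core complex, fell by 1.31 on the log2 scale in PC-3 cells (adjusted p = 4.51e-05), and changes of -0.73 in WM793B and 0.47 in SK-OV-3 cells were not called.

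**Figure D3:**
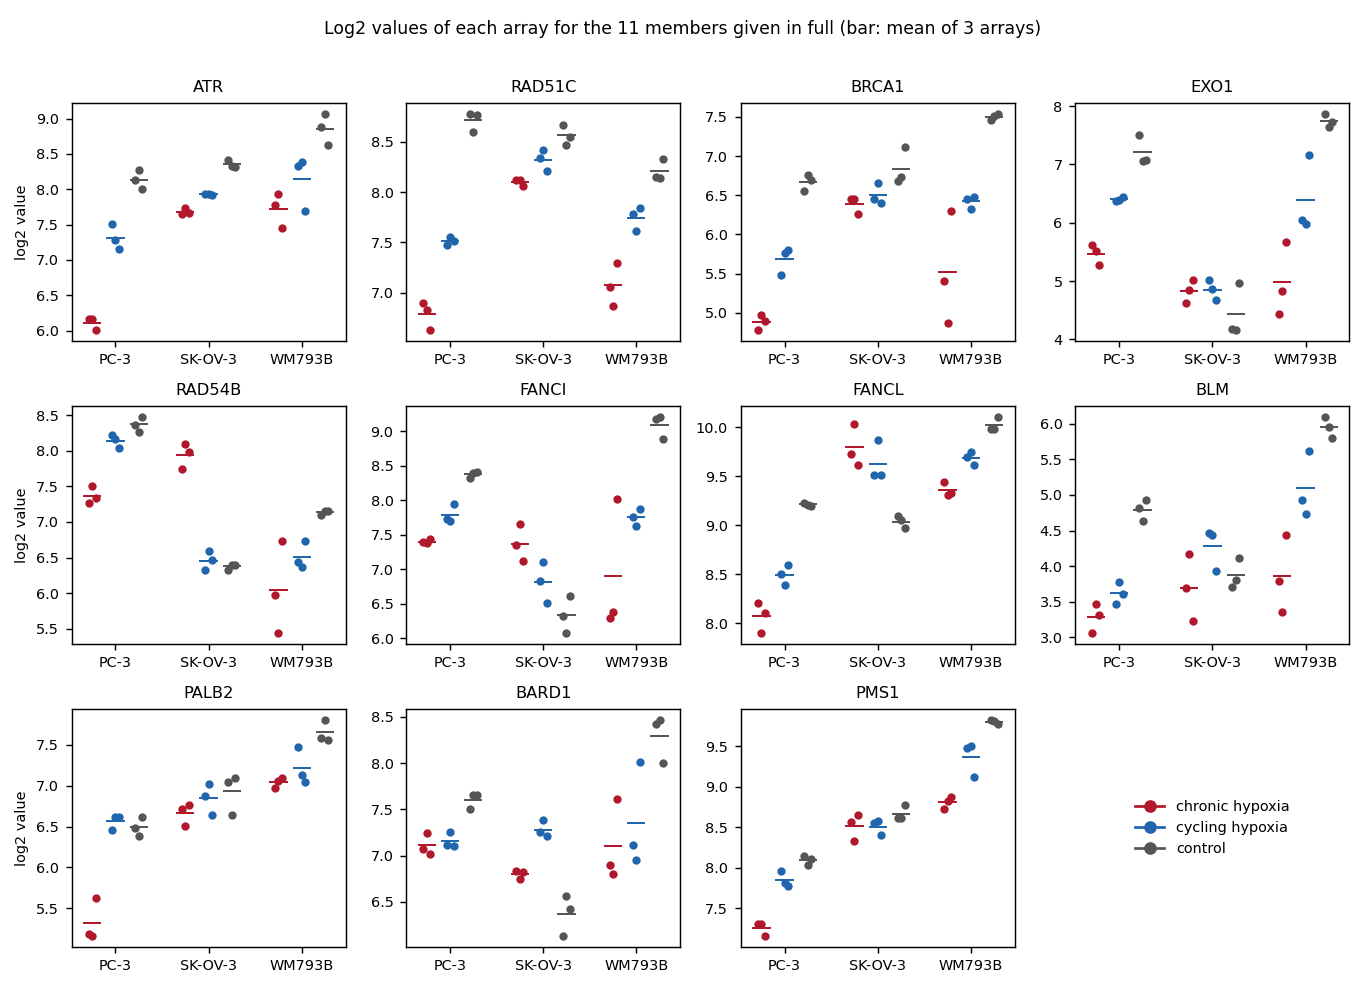
Log2 value (y axis) of each of the 27 arrays for the 11 genes whose values are given in full, by cell line (x axis) under chronic hypoxia (red), cycling hypoxia (blue) and in control cells (gray), with bars at the mean of 3 arrays. RAD54B, FANCI, FANCL and BARD1 lie above control in SK-OV-3 cells under chronic hypoxia and below it in PC-3 cells.

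Of the mismatch repair genes, 1 of 2 was called lower in PC-3 and both in WM793B cells under chronic hypoxia. PMS1, a partner in the complex that nicks the mismatched strand, was at 7.31, 7.31 and 7.16 under chronic hypoxia, 7.96, 7.81 and 7.78 under cycling hypoxia and 8.15, 8.04 and 8.11 in control PC-3 cells. In WM793B cells it had 8.73, 8.82 and 8.88 under chronic hypoxia, 9.48, 9.50 and 9.12 under cycling hypoxia and 9.83, 9.81 and 9.78 in control cells. In both lines the 3 conditions were separate, and chronic hypoxia changed PMS1 by -0.84 (adjusted p = 0.000105) in PC-3 and -1.0 (adjusted p = 0.00168) in WM793B cells. Of the 4 other PMS1 probe sets, 2 shared this direction in each of these lines, and none was called. In SK-OV-3 cells it was at 8.57, 8.33 and 8.65 under chronic hypoxia and 8.62, 8.61 and 8.78 in control cells, which overlapped. MSH6, which recognises the mismatch, was called lower under chronic hypoxia in WM793B cells (-0.60, adjusted p = 0.00491) and higher in SK-OV-3 cells on the arrays of cycling hypoxia (0.36, adjusted p = 0.0155).

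Of the 6 checkpoint genes, 3 were called lower in PC-3 cells (ATR, CHEK1 and TOPBP1) and 4 in WM793B cells (ATR, CHEK2, TOPBP1 and CLSPN), and the brightest probe set of ATM was called in no line. CLSPN was dim, and its other probe sets did not share its direction in WM793B cells. ATR, the kinase that answers to stalled replication forks, fell more than any other of the 31 genes in PC-3 cells. It was at 6.17, 6.16 and 6.01 under chronic hypoxia, 7.51, 7.29 and 7.15 under cycling hypoxia and 8.13, 8.27 and 8.0 in control cells, with a change of -2.02 for chronic hypoxia (adjusted p = 2.52e-05, standard error 0.11), a 4.05-fold difference. Cycling minus chronic hypoxia was 1.20 (adjusted p = 0.00104), and the 3 conditions did not overlap. SK-OV-3 cells had 7.65, 7.73 and 7.67 under chronic hypoxia, 7.94, 7.94 and 7.92 under cycling hypoxia and 8.42, 8.33 and 8.31 in control cells. These groups, though closer together, were also separate (chronic hypoxia -0.67, adjusted p = 6.08e-05). In WM793B cells ATR was at 7.78, 7.94 and 7.45 under chronic hypoxia, 8.33, 8.39 and 7.70 under cycling hypoxia and 8.88, 9.07 and 8.62 in control cells. Both hypoxic groups lay below control and overlapped each other, and the change of -1.14 under chronic hypoxia (adjusted p = 0.0189) was no longer called without chronic replicate 1 or 3 or control replicate 1 or 2 (adjusted p from 0.0515 to 0.0702). A second bright probe set of ATR was called lower in each line too, with changes of -2.45 in PC-3, -1.33 in WM793B and -0.68 in SK-OV-3 cells.

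CHEK1, the kinase downstream of ATR, averaged 7.03 ± 0.11 under chronic hypoxia and 8.46 ± 0.08 in control PC-3 cells (SD, n = 3), a change of -1.43 (adjusted p = 1.76e-05). In WM793B cells its change of -1.29 was not called (adjusted p = 0.0655), and of its other probe sets there, one was called lower and the dimmest, at 4.04 or below, was called higher (0.60, adjusted p = 0.0315), as it was in SK-OV-3 cells (0.62, adjusted p = 0.00238). TOPBP1, which activates ATR, was called lower in PC-3 (-0.77, adjusted p = 0.000443) and WM793B cells (-0.62, adjusted p = 0.0379). CHEK2, the kinase downstream of ATM, was called lower in WM793B cells (-1.44, adjusted p = 0.0499) and not in PC-3 cells (-0.36). ATM itself changed by -0.13 in PC-3, 0.14 in WM793B and -0.28 in SK-OV-3 cells, with standard errors of 0.13, 0.19 and 0.28.

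UNG, the glycosylase that removes uracil from DNA, averaged 7.25 ± 0.13 under chronic hypoxia and 8.72 ± 0.09 in control PC-3 cells, and 6.0 ± 0.24 under chronic hypoxia and 7.42 ± 0.25 in control WM793B cells (SD, n = 3). These were changes of -1.47 (adjusted p = 2.09e-05) and -1.43 (adjusted p = 0.00307). PARP1, the sensor of single strand breaks, changed by -1.04 in PC-3 (adjusted p = 5.64e-05) and by -1.06 in WM793B cells (adjusted p = 0.000324), but by only -0.05 in SK-OV-3 cells (standard error 0.09). Both genes were also called lower under cycling hypoxia in PC-3 and in WM793B cells.

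Of the end joining genes, 3 of 3 were called lower in PC-3 cells under chronic hypoxia, 2 of 3 in WM793B cells and 2 of 3 in SK-OV-3 cells. XRCC5 and XRCC6 are the subunits of the Ku ring that caps broken ends. XRCC6 averaged 10.89 ± 0.06 under chronic hypoxia and 11.47 ± 0.06 in control PC-3 cells (SD, n = 3). The averages were 11.74 ± 0.01 under chronic hypoxia and 12.25 ± 0.09 in control SK-OV-3 cells, and 10.73 ± 0.13 under chronic hypoxia and 11.32 ± 0.15 in control WM793B cells. The changes of -0.58, -0.52 and -0.58 were each called. The other XRCC6 probe set did not share this direction in any line and was not called. XRCC5 was called lower too, with changes of -0.43 in PC-3, -0.63 in WM793B and -0.49 in SK-OV-3 cells. PRKDC, the kinase that Ku recruits, was called lower in PC-3 cells (-1.0, adjusted p = 0.000745), and changes of -0.43 in WM793B and -0.51 in SK-OV-3 cells were not called. A second PRKDC probe set was called lower in both, with -0.52 in WM793B (adjusted p = 0.0244) and -0.44 in SK-OV-3 cells (adjusted p = 0.0216). Under cycling hypoxia PRKDC was called lower in SK-OV-3 cells (-0.85, adjusted p = 0.0141).

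Whether the lines differed in their response was tested directly, as the difference of their log2 fold changes under chronic hypoxia. The response of SK-OV-3 minus that of PC-3 cells was called higher for 20 of the 31 genes and lower for 0, where 18.6% of all genes were called higher and 12.4% lower. SK-OV-3 minus WM793B cells gave 22 higher and 2 lower, where 15.2% of all genes were higher and 14% lower. The 2 lower were NBN and RAD50, each read by its brightest probe set. In WM793B cells under chronic hypoxia neither of the 2 other RAD50 probe sets shared the direction of the brightest. Of the other NBN probe sets there, 1 was called lower, opposite to the brightest. WM793B minus PC-3 cells gave 4 higher and 4 lower, beside 14.4% and 8.76% of all genes. Here RAD51C, RAD50, FANCL and ATR were higher and XRCC3, FANCC, MSH6 and CHEK2 lower. The count of 8 became 5 without PC-3 chronic replicate 2, PC-3 control replicate 1 or 3, or WM793B control replicate 1. The shares in this paragraph are of all genes, silent ones included, and are not given for the genes that reached 5. The opposite responses of RAD54B, FANCI, FANCL and BARD1 were among the differences called. The BARD1 difference between SK-OV-3 and PC-3 cells, 0.92 (adjusted p = 0.0373), was no longer called without chronic replicate 1, 2 or 3 or control replicate 1 or 3 of SK-OV-3, or chronic replicate 1 or 3 or control replicate 2 or 3 of PC-3 (adjusted p from 0.0534 to 0.0996). For RAD54B the difference between SK-OV-3 and PC-3 cells was 2.56 (standard error 0.28, adjusted p = 7.7e-07), and for FANCL 1.90 (standard error 0.14, adjusted p = 5.6e-09). EXO1 and FANCI differed most between SK-OV-3 and WM793B cells, with 3.16 for EXO1 (standard error 0.42, adjusted p = 1.17e-05) and 3.22 for FANCI (standard error 0.42, adjusted p = 9.07e-06). None of the 3 end joining genes was called in any of these differences, with values between SK-OV-3 and PC-3 cells of -0.06 for XRCC5, 0.06 for XRCC6 and 0.49 for PRKDC (standard errors 0.07, 0.11 and 0.19).

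**Figure D4:**
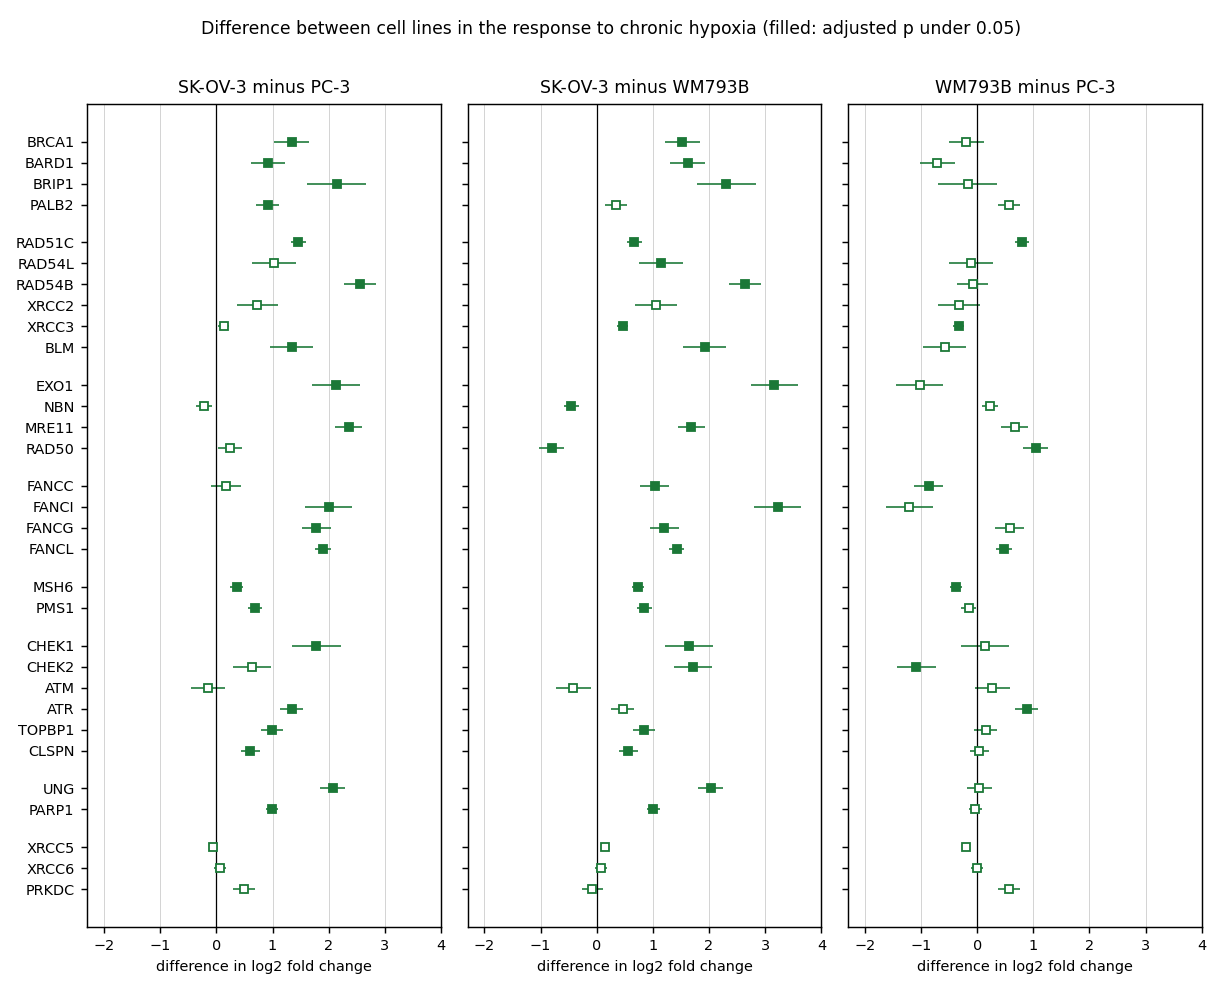
Difference between 2 cell lines in the log2 fold change of chronic hypoxia against control, with its standard error (x axis), for the 31 genes (rows, grouped by role); filled symbols have an adjusted p under 0.05. For SK-OV-3 minus PC-3, 20 filled symbols lie right of 0 and none left of it.

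In PC-3 cells the changes were smaller under cycling hypoxia. Expression was called lower than in control cells for 20 of the 31 genes and higher for 0, beside 13.2% of all genes lower, with a median of -0.52. Of these calls 3 were at least 2-fold, given without the number of all genes at that minimum. Set against chronic hypoxia, 16 genes were higher under cycling hypoxia and 0 lower, where 15% of all genes were called higher and 5.58% lower. The median of this difference was 0.35. These comparisons share arrays, so that each is given by its own values. In WM793B cells 6 genes (XRCC3, MRE11, FANCL, UNG, XRCC5 and PARP1) were called lower under cycling hypoxia, beside 2.99% of all genes lower and 3.43% higher, with a median of -0.54, and 5 (RAD51C, FANCL, MSH6, PMS1 and PARP1) were called higher than under chronic hypoxia, beside 2.88% of all genes higher and 2.13% lower. The 6 calls became 11 without WM793B chronic replicate 3 and 3 without control replicate 1 or 2. The 5 calls against chronic hypoxia became 8 without chronic replicate 3, 1 without cycling replicate 1, chronic replicate 1 or 2 or control replicate 1, and 0 without cycling replicate 2 or control replicate 2. In SK-OV-3 cells 5 genes were called lower than control (RAD50, ATR, XRCC5, XRCC6 and PRKDC) and 4 higher (BARD1, FANCL, MSH6 and CHEK2), beside 7.89% and 8.53% of all genes. These 9 calls became 4 without cycling replicate 1 or control replicate 2 and 5 without control replicate 1 or 3. Cycling hypoxia differed from chronic hypoxia there for RAD54B, which was lower (-1.48, adjusted p = 0.000582), and for BARD1 (0.48, adjusted p = 0.0416) and ATR (0.25, adjusted p = 0.00674), which were higher, beside 6.49% of all genes lower and 8.53% higher. The BARD1 call was lost without any 1 SK-OV-3 array except control replicate 1 or 2 (adjusted p from 0.0712 to 0.139), and the FANCL call of cycling hypoxia against control without any 1 except chronic replicate 2 or 3 (adjusted p from 0.0655 to 0.125). Without SK-OV-3 chronic replicate 2 this balance was the reverse, 2 lower and 1 higher. Between the lines, the response to cycling hypoxia was called higher in SK-OV-3 than in PC-3 cells for 8 genes and lower for 0, beside 11.1% of all genes higher and 9.29% lower. It was higher in SK-OV-3 than in WM793B cells for 11 genes and lower for 2, beside 9.93% and 9.94%, and higher in WM793B than in PC-3 cells for RAD51C alone, beside 6.55% higher and 5.23% lower, a count that became 2 without WM793B control replicate 3.

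The arrays of a group lay farthest apart in WM793B cells under chronic hypoxia. Over the 31 genes the median difference from the control mean was -1.01, -0.97 and -0.62 on replicates 1, 2 and 3 of chronic hypoxia in WM793B cells, so that the third array stood nearest to control. The cycling arrays of that line were at -0.52, -0.54 and -0.41. In PC-3 cells the arrays of chronic hypoxia were at -0.85, -0.87 and -0.94 and those of cycling hypoxia at -0.49, -0.51 and -0.59, which kept them apart. In SK-OV-3 cells all hypoxic arrays lay between -0.09 and 0.09.

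**Figure D5:**
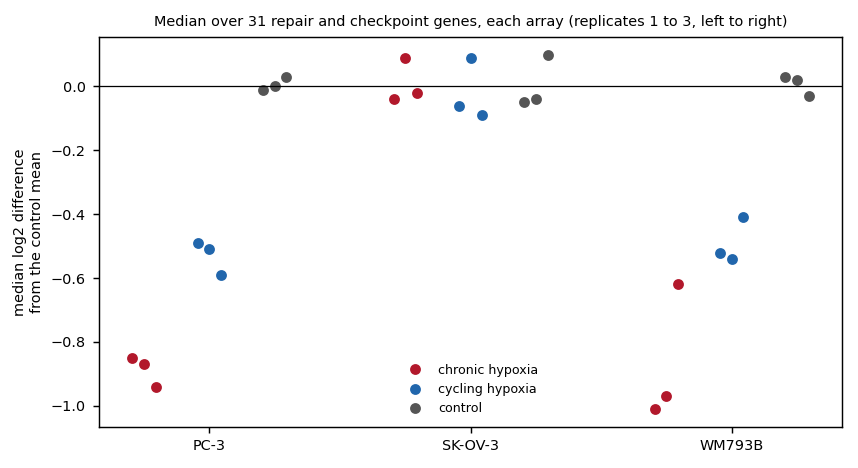
Median over the 31 genes of the log2 difference from the control mean of the same line (y axis) for each of the 27 arrays, by cell line (x axis), under chronic hypoxia (red), cycling hypoxia (blue) and in control cells (gray). The PC-3 arrays fall into 3 separate levels, the SK-OV-3 arrays stay within 0.10 of 0, and WM793B replicate 3 of chronic hypoxia, at -0.62, lies close to the cycling arrays.

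Markers of proliferation, many of which share their timing in the cell cycle with these genes, were read beside them. Of 18 such markers, 10 were called lower and 2 higher under chronic hypoxia in PC-3 cells (median -0.27), 0 lower and 11 higher in SK-OV-3 cells (median 0.77), and 6 lower and 0 higher in WM793B cells (median -0.58). Under cycling hypoxia 7 were lower and 1 higher in PC-3 cells, 0 lower and 12 higher in SK-OV-3 cells (median 1.00), and 3 lower and 0 higher in WM793B cells. The response of these markers to chronic hypoxia was called higher in SK-OV-3 than in PC-3 cells for 10 of the 18 and lower for 0, beside 18.6% and 12.4% of all genes. It was called higher in SK-OV-3 than in WM793B cells for 15 and lower for 0, beside 15.2% and 14%. WM793B minus PC-3 cells gave 0 higher and 3 lower, beside 14.4% and 8.76%. Under cycling hypoxia these counts were 8, 16 and 0 higher, with 0 lower in each, beside 11.1%, 9.93% and 6.55% of all genes higher. The replication clamp PCNA averaged 9.97 under chronic hypoxia and 11.56 in control PC-3 cells, and 9.19 under chronic hypoxia and 11.52 in control WM793B cells. In SK-OV-3 cells PCNA averaged 9.76 under chronic hypoxia and 10.15 in control cells, a difference that was not called. MKI67, expressed in cycling cells, averaged 7.62 under chronic hypoxia and 7.32 in control PC-3 cells, and 7.90 under chronic hypoxia and 6.11 in control SK-OV-3 cells. In WM793B cells MKI67 averaged 8.08 under chronic hypoxia and 8.07 in control cells. The part of these shifts in the changes of the repair genes was not tested.

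A wider list of repair and checkpoint genes was read beside the 31, and 56 of its 60 genes were measured. Of these, 31 were called lower and 7 higher under chronic hypoxia in PC-3 cells (median -0.46), 10 lower and 7 higher in SK-OV-3 cells (median 0.01), and 19 lower and 2 higher in WM793B cells (median -0.44). Under cycling hypoxia the counts were 11 lower and 7 higher in PC-3 cells, beside 13.2% of all genes lower and 11.1% higher. In SK-OV-3 cells they were 1 lower and 4 higher, beside 7.89% and 8.53% of all genes. In WM793B cells they were 1 lower and 0 higher, beside 2.99% and 3.43%. These shares of all genes include silent genes. In PC-3 cells 55.4% of this list was thus called lower under chronic hypoxia, against 74.2% of the 31 genes and 22.6% of all genes (38.4% of those that reached 5). The share called higher there was 12.5%, beside 13.3% of all genes. Chronic hypoxia lowered 13.6% of all genes and raised 11.5% in SK-OV-3 cells, and 10.9% and 8.5% in WM793B cells.

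The lines also differed in how much of each gene they carried under control conditions. WM793B control cells were higher than SK-OV-3 control cells for 26 of the 31 genes and lower for 5, where 23% of all genes were called higher and 25.5% lower. PC-3 control cells were higher than SK-OV-3 control cells for 17 and lower for 5, beside 23.8% and 23.4% of all genes. WM793B control cells were higher than PC-3 control cells for 16 and lower for 8, beside 22.5% and 23.2%. These shares of all genes include silent genes. CHEK2 averaged 7.54 ± 0.03 in WM793B and 3.52 ± 0.08 in SK-OV-3 control cells (SD, n = 3), a difference of 4.02 (adjusted p = 1.95e-11), and FANCI averaged 9.09 ± 0.18 in WM793B and 6.34 ± 0.27 in SK-OV-3 control cells. RAD50 ran the other way, at 5.49 on each PC-3 control array and 9.44 ± 0.10 in SK-OV-3 control cells (SD, n = 3, difference -3.95, adjusted p = 2.72e-14). Of the genes that were called higher in SK-OV-3 cells under chronic hypoxia, RAD54B, FANCI and BARD1 were higher in PC-3 than in SK-OV-3 control cells, by 2.00, 2.03 and 1.23 on the log2 scale, and higher in WM793B than in SK-OV-3 control cells, by 0.76, 2.75 and 1.93. FANCL was higher in WM793B than in SK-OV-3 control cells by 0.99, and its difference between PC-3 and SK-OV-3 control cells, 0.18, was not called (adjusted p = 0.2).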

How the data were processed

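RNA of 27 cultures, 3 for each cell line and condition, was hybridised to Affymetrix U133 Plus 2.0 arrays. The deposited log2 values were made by the authors with GC-RMA, which corrects background by probe sequence, normalizes between arrays and summarises probes into 54675 probe sets; its version and a genome build for the probe sets are not given in the sources used here. The array medians lay between 2.61 and 2.66, and 3 arrays per group limit the precision. The labels call the replicates biological, without saying whether cultures were started separately, so p-values measure the spread between these samples.

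The values were used without further normalization. Of the probe sets, 41097 carried 1 gene symbol, 1801 several and 11777 none in the annotation used, and a gene was read by its probe set of highest mean. In each cell line, conditions were compared over its 9 arrays with limma 3.58.1 in R 4.3.3 (lmFit, eBayes with trend), and differences between lines over all 27 arrays. The study's methods use a random variance t-test on a variation-filtered set. That filter (1.5-fold away from a probe set's median on 20% or more of the arrays) was an alternative here, and limma took the place of that test. Adjusted p values are Benjamini-Hochberg values over all 54675 probe sets, called under 0.05. The scripts were tested on simulated data. Other alternatives were a filter at a log2 value of 5, a 2-fold minimum, median centring, the mean of a gene's probe sets, other sets of arrays, a replicate block and leaving out each array.

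Array values are given for the 4 genes with the largest called change under chronic hypoxia in each line, the 2 with the largest called difference between cycling and chronic hypoxia, and those called in opposite directions. The genes and lists (other repair genes, proliferation, hypoxia and cell markers, promoter letters) were chosen with earlier results of these data known. Promoter sequences are from RefSeq, GRCh38.p14.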

Additional observations from a re-analysis of the deposited data

Results flagged for a closer look

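Differences between cell lines in the response to hypoxia were called by their own test (limma over 27 arrays, adjusted p from 5.6e-09 to 0.0373) for the genes whose array values are given, and all are differences of log2 fold changes. Under chronic hypoxia, the response of SK-OV-3 minus that of PC-3 cells was 1.34 for ATR, 1.46 for RAD51C, 1.34 for BRCA1, 0.91 for PALB2, 0.92 for BARD1 and 0.69 for PMS1. It was 2.56 for RAD54B, 2.00 for FANCI, 1.90 for FANCL, 2.13 for EXO1 and 1.34 for BLM. SK-OV-3 minus WM793B cells gave 0.67 for RAD51C, 1.52 for BRCA1, 1.62 for BARD1, 0.85 for PMS1 and 1.92 for BLM. It gave 3.16 for EXO1, 2.64 for RAD54B, 3.22 for FANCI and 1.42 for FANCL. WM793B minus PC-3 cells gave 0.88 for ATR, 0.80 for RAD51C and 0.48 for FANCL. The FANCL difference was no longer called without PC-3 chronic replicate 2, WM793B chronic replicate 1 or WM793B control replicate 1 or 2 (adjusted p from 0.0514 to 0.0727), and that of BARD1 between SK-OV-3 and PC-3 cells without any of 9 single arrays (0.0534 to 0.0996).

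Under cycling hypoxia fewer of these differences were called. SK-OV-3 minus PC-3 cells gave 0.97 for RAD51C, 1.32 for FANCL, 1.58 for BLM and 1.36 for BARD1, and WM793B minus PC-3 cells gave 0.74 for RAD51C. SK-OV-3 minus WM793B cells gave 1.77 for EXO1, 1.81 for FANCI, 0.93 for FANCL, 1.27 for BLM and 1.85 for BARD1. The BLM difference of 1.27 was no longer called without replicate 1 or 2 of the cycling or control arrays of either line (adjusted p from 0.0541 to 0.0854). BLM was dim in SK-OV-3 and PC-3 cells, and EXO1 in SK-OV-3 cells, so that their differences rest in part on signals near or under a log2 value of 5.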

How the results depend on the processing

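For the genes whose array values are given, no difference called in the main result or in an alternative had opposite directions in the 2. Differences called in neither were not checked for this, and small ones can change direction. The counts with a 2-fold minimum that follow are given without the share of all genes at that minimum. With a minimum of 2-fold added, the counts of called genes were 15, 3 and 3 in PC-3 cells (chronic hypoxia, cycling hypoxia, and cycling against chronic hypoxia), 2, 0 and 1 in SK-OV-3 cells, where the last one was lower and so the reverse of the main balance, and 11, 1 and 0 in WM793B cells. The same minimum left 13 for SK-OV-3 minus PC-3, 2 for WM793B minus PC-3 and 16 for SK-OV-3 minus WM793B under chronic hypoxia, 5, 0 and 6 under cycling hypoxia, and 13, 9 and 14 between control cells of PC-3 and SK-OV-3, WM793B and PC-3, and WM793B and SK-OV-3. The variation filter, which 26 of the 31 genes passed, gave in SK-OV-3 cells 14 for chronic hypoxia and 6 for cycling against chronic hypoxia, and 2 for WM793B minus PC-3 under cycling hypoxia. The filter at a log2 value of 5 gave 15, 6 and 2 for the same results, and 13 for cycling hypoxia in WM793B cells. Median centring gave 8 for cycling against chronic hypoxia in SK-OV-3 cells. One fit over all 27 arrays gave 3 there (2 lower and 1 higher, the reverse), and 17 for cycling hypoxia and 10 for cycling against chronic hypoxia in WM793B cells. With only the 2 groups compared, this last count was 0. The mean of a gene's probe sets gave 2 for WM793B minus PC-3 under cycling hypoxia. Fewer probe sets tested make the adjustment milder in both filters; the cause of the other shifts was not tested.

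Leaving out 1 array at a time, the counts ran in PC-3 cells from 22 to 24 (chronic), 17 to 21 (cycling) and 14 to 17 (cycling against chronic), in SK-OV-3 cells from 6 to 9, 4 to 9 and 2 to 3, and in WM793B cells from 13 to 24, 3 to 11 and 0 to 8. Between lines they ran from 18 to 21, 5 to 11 and 22 to 24 for SK-OV-3 minus PC-3, WM793B minus PC-3 and SK-OV-3 minus WM793B under chronic hypoxia, from 8 to 9, 1 to 2 and 11 to 13 under cycling hypoxia, and from 20 to 22, 21 to 23 and 27 to 30 between control cells of PC-3 and SK-OV-3, WM793B and PC-3, and WM793B and SK-OV-3.

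Arrays of the same replicate number share only a number. Their deviations from the group means correlated from -0.06 to 0.16 in PC-3, -0.10 to 0.19 in SK-OV-3 and -0.03 to 0.30 in WM793B cells, and 4, 4 and 7 of 9 arrays correlated best with their own number. With a replicate block the counts were 5 for cycling hypoxia in SK-OV-3 cells, 1 for cycling against chronic hypoxia in WM793B cells and 2 for WM793B minus PC-3 under cycling hypoxia.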
